A study of Mus musculus with 3 samples.

Results

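Long noncoding RNAs that mostly stay in the nucleus were followed in mouse bone marrow progenitors with and without the Runx1-Runx1t1 fusion gene. The 6 genes Malat1, Neat1, Kcnq1ot1, Meg3, Gas5 and Snhg12 were chosen by name with earlier results of these data in view, so their levels are a description. Of these, 5 were measured among the 27998 listed genes, and Gas5 was not analysed here. Every cell came from C57BL/6 bone marrow, was sorted for c-kit and against DAPI and lineage markers, and was profiled by 10x Genomics droplet sequencing. A wild-type mouse gave the control library. Sort fractions of 1 other mouse gave the non_mCherry and mCherry libraries. That mouse carried Mx1-Cre, which acts in cells that respond to interferon, and a heterozygous conditional knock-in of Runx1-Runx1t1 with mCherry downstream, switched on by poly(I:C). Cells of the mCherry fraction carry the reporter of the fusion, and cells of the non_mCherry fraction do not. Treatment of the control mouse with poly(I:C) is not stated, so that treatment and the mouse itself cannot be told apart from the genotype in comparisons with control. With 1 library per group there is no replicate check, no test was made, and the 95% intervals cover counting error only.

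Malat1 is an abundant nuclear RNA that gathers at nuclear speckles, the sites where splicing factors are stored. Neat1 is the scaffold of paraspeckles: its long isoform builds these nuclear bodies, while its short, polyadenylated isoform does not. Kcnq1ot1 is an imprinted antisense RNA that silences neighbouring genes on the paternal chromosome, and Meg3 is expressed from the maternal copy of the Dlk1 imprinted region, which is active in blood stem cells. Snhg12 and Gas5 are host genes whose introns carry small nucleolar RNAs and whose spliced RNAs are short-lived.

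Malat1 and Neat1 lie side by side. In the GENCODE M21 annotation of GRCm38 (mm10), Malat1 is at chr19:5795690-5802672 and Neat1 at chr19:5824708-5845478, both on the minus strand, with 22035 bases between them. The 3′ ends of the mature Malat1 RNA and of the long Neat1 isoform are known to be cut rather than polyadenylated and to fold into a protective triple helix of U-rich and A-rich stretches. Both stretches are shown here because they mark these RNAs off from ordinary polyadenylated transcripts. The windows of 92 bases are read on the RNA strand, with the longest stretch that they share (16 bases) and the A-rich run in capitals. The Malat1 window is chr19:5795948-5796039, within its only exon in the full-length transcript, and the Neat1 window is chr19:5824708-5824799, the last bases of the long isoform.
Malat1: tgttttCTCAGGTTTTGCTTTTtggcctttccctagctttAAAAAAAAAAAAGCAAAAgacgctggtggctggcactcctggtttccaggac
Neat1, long isoform: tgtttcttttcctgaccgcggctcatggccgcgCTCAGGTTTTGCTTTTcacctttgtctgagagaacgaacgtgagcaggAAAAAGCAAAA

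The Malat1 run of 12 A is the longest in its 6983 bases, and the annotated transcript goes on for 258 bases after the window. The long Neat1 transcript, at 20771 bases, holds no run of 10 or more A and no AATAAA polyadenylation signal in its last 40 bases. The annotated ends of the longer Malat1 model (chr19:5795690-5795749), of the short Neat1 isoform (chr19:5842307-5842366) and of Snhg12 (chr4:132310965-132311024, plus strand) do carry this signal, in capitals below. They are shown because libraries of mRNA usually start from oligo(dT) priming at A-rich RNA.
Malat1, annotated end: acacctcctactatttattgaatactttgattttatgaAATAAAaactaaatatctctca
Neat1, short isoform: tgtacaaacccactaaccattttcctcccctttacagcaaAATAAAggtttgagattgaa
Snhg12: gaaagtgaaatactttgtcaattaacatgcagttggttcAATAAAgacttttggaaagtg

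Kcnq1ot1 is an unspliced RNA of 93092 bases at chr7:143203458-143296549 on the minus strand, antisense to Kcnq1. It holds 10 internal runs of 10 or more A in its 93092 bases. The longest Meg3 transcript (14548 bases) holds 6, Malat1 (6983 bases) 1, the longest Snhg12 transcript (1538 bases) 1 and Neat1 0. These counts are not scaled by length. The longest Kcnq1ot1 run, of 41 A, lies in the window chr7:143226935-143227014, whose end is 23477 bases before the end of the RNA. It is shown in capitals because oligo(dT) can prime there as well as at a tail.
Kcnq1ot1, internal run: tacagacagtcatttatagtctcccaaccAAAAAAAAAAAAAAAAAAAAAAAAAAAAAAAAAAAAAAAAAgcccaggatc

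Meg3 lies at chr12:109541001-109571726 on the plus strand and overlaps the antisense transcript Gm26906, and Snhg12 at chr4:132308623-132311024. The strand setting of the counting is not given in the sources used here, so reads of Kcnq1ot1 and Kcnq1, and of Meg3 and Gm26906, may not be separated. Kcnq1 itself had 0 UMIs (unique molecular identifiers, 1 per captured RNA molecule) in all 3 libraries. RefSeq windows (GRCm38.p6) of 250 bases before to 50 bases after the start were matched for 4 members. Read on both strands, the RUNX motif TGTGGT was in 1 of the 2 Meg3 windows and in none of those of Malat1, Kcnq1ot1 and Snhg12. It was in 16.76% of 32851 such windows. The first 10 transcribed bases of Snhg12, tttctcgctt, hold 9 pyrimidines, beside a median of 5 over all windows and 9 or more in 2.80% of them. An oligopyrimidine start is a known feature of snoRNA host genes.

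After barcode filters, 8849 control, 7852 non_mCherry and 10172 mCherry cells remained, with medians of 15416, 9246.5 and 8178.5 UMIs per cell and library totals of 143311001, 86916116 and 92373057 UMIs. Runx1t1, the gene joined to Runx1 by the knock-in, had a level of 8.49 CPM (counts per 1000000 UMIs of the library) in mCherry, beside 0.216 in control and 0.311 in non_mCherry. Kit, the gene of the sorted surface protein c-kit, was at 269, 66.8 and 56.6 CPM there. Mast cell markers also differed: in control, non_mCherry and mCherry 3, 4 and 5 of 6 had any UMI (Mcpt1 was at 0 throughout), and their summed level was 99.7, 192 and 11048 CPM. Only 1, 1 and 2 of the 6 reached 20 CPM, so the sums rest on few genes. Between 16 and 36 used barcodes were shared by each pair of libraries, and member levels without them differed by less than 1 percent of their value.

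Malat1 was at 4826 CPM in control (95% Poisson interval 4814 to 4837), 5315 CPM in non_mCherry (5300 to 5330) and 19759 CPM in mCherry (19731 to 19788). The mCherry library stood far above the other libraries, which were close to each other. The fold was 4.09 for mCherry over control (4.08 to 4.11), 3.72 over non_mCherry (3.71 to 3.73) and 1.10 for non_mCherry over control (1.10 to 1.11). In mCherry, 1.98% of all UMIs were Malat1, beside 0.483% in control and 0.531% in non_mCherry. Neat1 was at 176 CPM in control (173 to 178), 129 CPM in non_mCherry (126 to 131) and 970 CPM in mCherry (964 to 977). It was 5.52-fold higher in mCherry than in control (5.45 to 5.60), 7.53-fold higher than in non_mCherry (7.38 to 7.68) and 1.36-fold lower in non_mCherry than in control (1.33 to 1.39). So the neighbouring genes were high in the same library. Between the other libraries Neat1 was the lower in non_mCherry, while the small Malat1 difference kept no direction: its log2 ratio, 0.14, was -0.022 with a stricter barcode filter and -0.073 as a mean over the cell lineages described further on.

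Kcnq1ot1 was at 273 CPM in control (271 to 276), 212 CPM in non_mCherry (209 to 215) and 329 CPM in mCherry (326 to 333). The libraries lay within a 1.55-fold range, with the reporter-negative fraction lowest. Snhg12 was at 68.6 CPM in control (67.3 to 70.0), 78.9 CPM in non_mCherry (77.0 to 80.7) and 89.0 CPM in mCherry (87.1 to 91.0), 1.30-fold higher in mCherry than in control. Scaling the libraries by the median of gene ratios in place of their totals moved the median log2 ratio of mCherry over control by -0.17 over all genes, and turned the small Snhg12 difference between mCherry and non_mCherry from 0.17 to -0.01. Meg3 was near the limit of detection, with 74 UMIs in 48 control cells, 2 UMIs in non_mCherry and 11 UMIs in 7 mCherry cells. These are 0.516 CPM (0.405 to 0.648), 0.0230 CPM (0.00279 to 0.0831) and 0.119 CPM (0.0594 to 0.213), against a floor of 3 counts of 0.0209, 0.0345 and 0.0325 CPM. Control thus held most Meg3 UMIs, 4.34 times the CPM of mCherry (2.29 to 9.06) and 22.4 times that of non_mCherry (6.00 to 189).

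**Figure D1:**
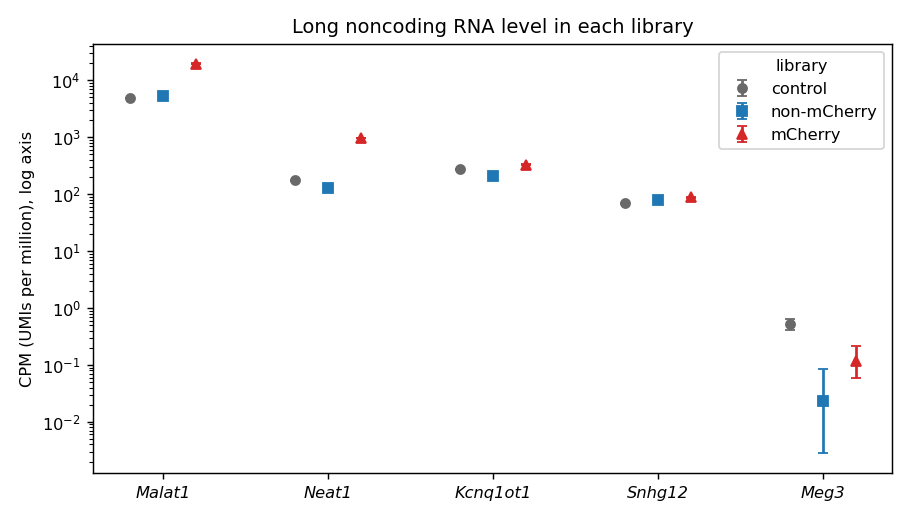
Level of each long noncoding RNA (CPM, log axis) in the control, non_mCherry and mCherry libraries, with 95% Poisson intervals for counting error, which are smaller than most symbols. Malat1 and Neat1 stand highest in mCherry (19759 and 970 CPM), and Meg3 stands highest in control (0.516 CPM).

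Of the 4 members with at least 20 CPM in a library, 2 (Malat1 and Neat1) were at least 2-fold higher in mCherry than in control and 0 at least 2-fold lower. Over all 6576 genes at that level, 18.5% were at least 2-fold higher and 12.3% at least 2-fold lower. Their median log2 ratio of CPM + 5 was 0.08, beside 1.19 for the 4 members. Because the members were chosen with these values in view, nothing is read from their count. Of the calls past 2-fold, 60.1% were higher, and 43.9% under scaling by the median of gene ratios. Between mCherry and non_mCherry the same 2 members were at least 2-fold higher and 0 lower, beside 17.6% and 11.1% of 6566 genes. Between non_mCherry and control 0 of 4 members reached 2-fold in either direction, beside 1.39% higher and 0.32% lower of 5631 genes.

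The Malat1 difference was spread over nearly the whole mCherry population. The median cell had 0.430% of its UMIs from Malat1 in control, 0.513% in non_mCherry and 1.94% in mCherry. The middle 90% of cells ran from 0.127% to 1.59% in control, 0.131% to 2.21% in non_mCherry and 0.323% to 4.42% in mCherry. Of mCherry cells, 93.0% lay above the control median, whereas 2.68% of control and 6.78% of non_mCherry cells lay above the mCherry median. A share of at least 2% of UMIs was found in 48.3% of mCherry cells, beside 2.50% in control and 6.37% in non_mCherry. The top of the range was alike, at 11.2%, 9.46% and 11.6%, but 274 mCherry cells reached 5%, beside 8 control and 5 non_mCherry cells. In UMIs, the median cell held 66 Malat1 molecules in control, 49 in non_mCherry and 164 in mCherry, so the mCherry cells had more Malat1 UMIs in spite of fewer UMIs in all. Neat1 had a median share of 0.0125% in control, 0.00484% in non_mCherry and 0.0703% in mCherry, with a median of 2, 1 and 6 UMIs per cell. In mCherry, 91.1% of cells lay above the non_mCherry Neat1 median and 86.3% above the control median. Kcnq1ot1 medians were 0.0211%, 0.0131% and 0.0198%, with control highest. Its mean share over cells was 0.0293%, 0.0224% and 0.0322%, with mCherry highest as in CPM, so the median and the mean gave different orders of control and mCherry.

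**Figure D2:**
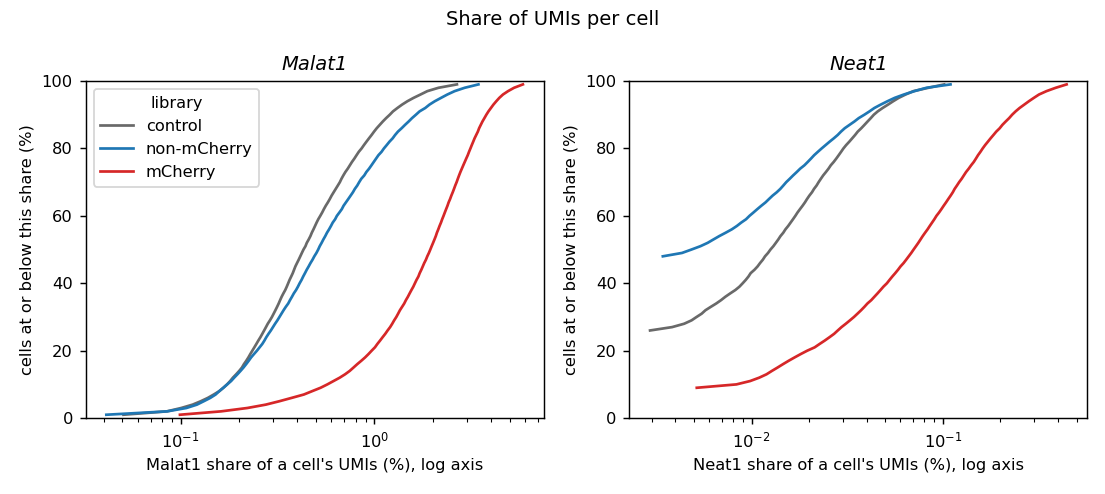
Percentage of cells (vertical axis) at or below a given share of the cell's UMIs (horizontal log axis) for Malat1 and Neat1, from the 1st to the 99th percentile, with shares of 0 left out. The mCherry curves lie to the right, with medians of 1.94% for Malat1 and 0.0703% for Neat1.

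Over each whole library the share of Malat1 was larger in cells with fewer UMIs. In control its median went from 0.972% in cells of 2000 to 4000 UMIs to 0.280% in cells of 32000 UMIs or more. The corresponding medians were 1.27% and 0.277% in non_mCherry and 2.63% and 0.896% in mCherry. The number of Malat1 UMIs still grew with depth, from a median of 29 to 106 per cell in control and from 83 to 382 in mCherry, but less than the total did. Across cells the Spearman rank correlation of the Malat1 share with total UMIs was -0.445 in control, -0.580 in non_mCherry and -0.190 in mCherry (n = 8849, 7852 and 10172 cells, which share a library and whose share has the total in its denominator). With every cell thinned to 2000 UMIs it was -0.420, -0.556 and -0.188. Within cells grouped by lineage markers, as described further on, the relation was not uniform. In control it was negative in 7 of 10 groups, from -0.479 in erythroid cells to -0.0449 in the 1979 granulocyte cells, and positive in monocyte (0.0929), megakaryocyte (0.217) and neutrophil (0.233) cells. It was negative in all 9 non_mCherry groups (-0.623 to -0.0390) and all 3 mCherry groups (-0.229 to -0.143). Within each of the 5 depth bins Malat1 was higher in mCherry than in control, by 2.19-fold in the shallowest to 3.64-fold in cells of 16000 to 32000 UMIs. The deepest bin held 17 mCherry cells. Neat1 was 3.12-fold to 5.72-fold higher over the same bins. Kcnq1ot1 was 0.784 to 1.45 times its control level, below it in the bin of 4000 to 8000 UMIs.

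Over each whole library the relation to the mitochondrial share of UMIs, which is often read as a sign of damaged cells, was weaker. The median mitochondrial share was 1.87%, 1.87% and 2.50% in control, non_mCherry and mCherry. Its rank correlation with the Malat1 share was 0.244, 0.195 and 0.0529. With Malat1 and mitochondrial UMIs taken out of the denominator of the Malat1 share alone, it was 0.254, 0.203 and 0.0647. By lineage group, the correlation with the plain Malat1 share was positive in 8 of 10 control, 7 of 9 non_mCherry and 3 of 3 mCherry groups. It was negative in control neutrophil (-0.167) and erythroid (-0.128) cells. In some groups it was stronger than the relation to total UMIs, as in control granulocyte cells (0.178, beside -0.0449). In control the Malat1 median went from 0.308% of UMIs in cells under 1% mitochondrial to 0.698% in cells of 5% to 10%. In mCherry the 297 cells under 1% mitochondrial stood apart, with a median of 0.424%, beside 1.93% in cells of 1% to 2% and 2.86% in cells of 5% to 10%. These low-mitochondrial mCherry cells also held less Kcnq1ot1 (110 CPM, beside 239 CPM in cells of 1% to 2%) and Neat1 (428 and 937 CPM). Malat1 was 2.60-fold to 4.18-fold higher in mCherry than in control over the 5 bins. Neat1 and Snhg12 shares had correlations with mitochondrial share between -0.0857 and 0.058, too weak in sparse counts to be read, and those of Kcnq1ot1 were 0.172, 0.0674 and 0.193.

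Barcodes left out for over 10% mitochondrial UMIs (413, 487 and 757) had high Malat1 levels, 57682 CPM in mCherry, 16013 CPM in control and 19016 CPM in non_mCherry. In control, non_mCherry and mCherry in turn, Kcnq1ot1 was higher there too, at 1458, 1065 and 958 CPM, while Snhg12 was lower than in the used cells, at 31.4, 41.3 and 53.4 CPM. Neat1 was at 525, 314 and 900 CPM in these barcodes, beside 176, 129 and 970 CPM in the used cells. It was thus higher in control and non_mCherry but lower in mCherry, and the libraries lay closer together. Among barcodes with too few genes or UMIs, Malat1 was at 8169, 24141 and 39260 CPM. The order of the libraries for Malat1, with mCherry highest, was the same in these barcodes as in the used cells.

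Cells with the fewest cell-division transcripts held the largest Malat1 shares over each whole library. S and G2M phase genes, the genes of DNA replication and mitosis, were counted per 10000 UMIs. The control median of Malat1 was 1.09% in the 230 cells with under 1 such UMI per 10000 and 0.868% in cells with 1 to 5. It was lowest, 0.358%, in the 4634 cells with 5 to 20, and higher again, 0.454%, in cells with 20 or more. In mCherry the medians fell in each step, from 2.18% (2242 cells) through 2.09% and 1.43% to 1.13% (615 cells). Within lineage groups the rank correlation of the Malat1 share with these genes was negative in 7 of 10 control groups, 8 of 9 non_mCherry groups and 3 of 3 mCherry groups. It was positive in control monocyte (0.336), megakaryocyte (0.197) and granulocyte (0.188) cells. Malat1 stayed 1.76-fold to 3.73-fold above control in all 4 bins. Immediate early genes, which cells switch on within minutes of a stimulus, went with both RNAs. The rank correlation of their summed share with that of Malat1 was 0.528, 0.595 and 0.402 in control, non_mCherry and mCherry, and with that of Neat1 0.293, 0.346 and 0.571. Within lineage groups the Malat1 correlation was positive in all 22 groups, from 0.178 to 0.727. Malat1 and Neat1 shares had a rank correlation of 0.188 in control, 0.162 in non_mCherry and 0.512 in mCherry, and 0.125, 0.162 and 0.424 after thinning to 2000 UMIs. For Malat1 and Kcnq1ot1 shares it was 0.313, 0.171 and 0.141, and 0.204, 0.165 and 0.113 after thinning. Malat1 was thus closer to Neat1 than to Kcnq1ot1 only in mCherry. The part of depth, cell division or immediate early genes in the library differences was not tested.

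**Figure D3:**
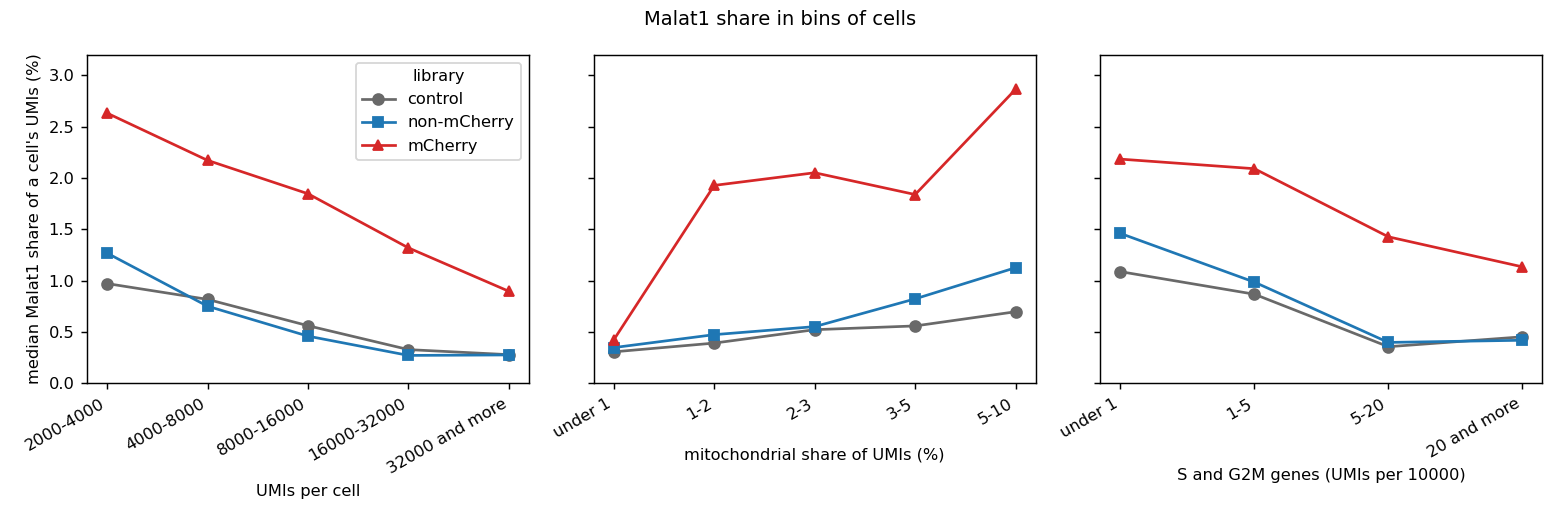
Median Malat1 share of a cell's UMIs (%) in bins of UMIs per cell, of mitochondrial share and of S and G2M phase genes, for each library. The mCherry medians lie highest in every bin, and closest to the others under 1% mitochondrial share (0.424% against 0.308% in control).

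Cells were grouped by lineage markers, none of them a member. No group was defined by mast cell markers. A group asks for at least 3 detected markers and a marker level past a limit that was set after the data were seen, so each group is a range of cells and not a type. Groups of at least 50 cells were used, 10 in control, 9 in non_mCherry and 3 in mCherry. In these libraries in turn, 21.9%, 20.6% and 43.8% of cells met the conditions of no group. Another 17.9%, 6.33% and 5.04% met those of more than 1 group without a clear top group, and were left out of the lineage comparisons. Of cells in the stem and multipotent progenitor group, 43.6%, 52.7% and 27.9% lay within 1.5 times of the limit. In mCherry the basophil group (38.4% near the limit) had a median of 53.8 granulocyte marker UMIs per 10000 beside 36.0 of its own, and the lymphoid-primed group (58.4% near the limit) had 11.3 beside 11.3.

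In control, Malat1 spanned a 5.83-fold range over 10 lineages. It was lowest in cells with monocyte and macrophage markers (3451 CPM; 3408 to 3495) and with granulocyte markers (3491 CPM; 3473 to 3509), whose intervals overlapped. Erythroid (4087 CPM), eosinophil (5028 CPM), lymphoid-primed (5512 CPM), neutrophil (5583 CPM) and megakaryocyte (7654 CPM) cells followed in that order, with overlap of the lymphoid-primed and neutrophil intervals. Stem and multipotent cells (9218 CPM; 9138 to 9298) and basophils (9406 CPM; 9269 to 9545) overlapped, and 79 cells with T, NK and innate lymphoid markers stood highest, at 20105 CPM (19574 to 20648). In non_mCherry the lowest and highest lineages were the same, at 3143 and 17343 CPM, B cell progenitors stood at 6232 CPM, and 0 of 8 neighbouring intervals overlapped. The T, NK and innate lymphoid cells were also the shallowest of these groups, with a median of 2961 UMIs in control and 2644 in non_mCherry.

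Neat1 had another order. Basophils, granule-bearing cells of allergic responses, held the most in control (468 CPM; 437 to 499) and in non_mCherry (353 CPM; 326 to 382). Erythroid cells were lowest in control, at 83.8 CPM (80.3 to 87.3). The 2043 B cell progenitors of the non_mCherry library were lower still, at 25.5 CPM (22.8 to 28.5), so that the range there was 13.8-fold. Between these ends, 6 of the 9 neighbouring pairs in control overlapped.

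Kcnq1ot1 was highest in the stem and multipotent group in each library: 477 CPM in control (459 to 496), 386 CPM in non_mCherry (356 to 417) and 383 CPM in mCherry (377 to 389). Megakaryocyte (356 CPM) and erythroid (312 CPM) cells came next in control, and T, NK and innate lymphoid cells were lowest in control and non_mCherry, at 111 and 89.3 CPM. Snhg12 was highest in erythroid cells of control and non_mCherry (105 and 106 CPM, the latter overlapping T, NK and innate lymphoid cells) and lowest in basophils (21.6 and 21.7 CPM). Lymphoid-primed and stem cells overlapped at 89.1 and 86.9 CPM in control. Meg3 had its highest control level in the stem group: 30 of its 74 UMIs came from 20 of the 553 stem and multipotent cells (5.44 CPM; 3.67 to 7.77). Another 9 UMIs came from 4 lymphoid-primed cells (2.25 CPM), 17 from cells with markers of more than 1 lineage and 7 from cells in no group. Megakaryocyte, neutrophil, eosinophil and T, NK and innate lymphoid cells of control had 0 Meg3 UMIs.

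**Figure D4:**
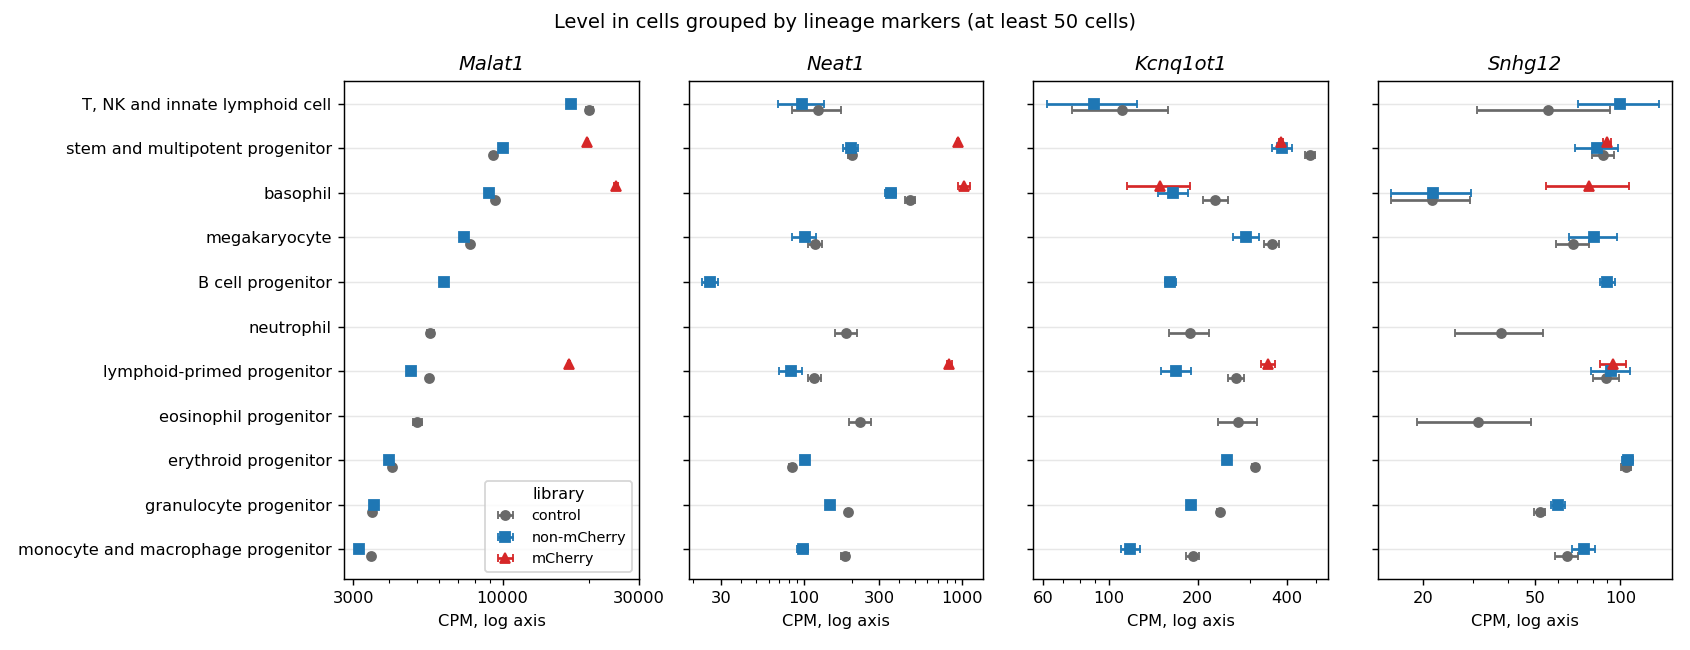
Level (CPM, log axis) of Malat1, Neat1, Kcnq1ot1 and Snhg12 in cells grouped by lineage markers, for groups of at least 50 cells, with 95% Poisson intervals. The mCherry points of Malat1 and Neat1 lie to the right in all 3 lineages shown, while the Kcnq1ot1 point of the stem group (383 CPM) lies left of control (477 CPM).

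Within lineages the mCherry library kept higher Malat1 and Neat1. In stem and multipotent cells Malat1 was at 19801 CPM in mCherry, beside 9218 CPM in control and 10029 CPM in non_mCherry, a fold of 2.15 over control (2.13 to 2.17). The fold was 2.65 in the basophil group and 3.09 in lymphoid-primed cells, all below the 4.09-fold of the whole libraries. Neat1 was at 940 CPM there, beside 201 CPM in control and 198 CPM in non_mCherry, a fold of 4.67 over control (4.40 to 4.96), and it was 2.19-fold and 7.14-fold higher in basophils and lymphoid-primed cells. Against non_mCherry, Malat1 was 1.97-fold to 3.57-fold and Neat1 2.90-fold to 10.0-fold higher in these lineages. Under stricter marker limits, the Malat1 fold over control was smaller, 1.68 (1.65 to 1.71) in stem and multipotent cells and 2.43 in lymphoid-primed cells. Neat1 was then 3.65-fold and 5.85-fold higher than in control, and the basophil group was too small to compare.

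Kcnq1ot1 was lower, not higher, in mCherry than in control in stem and multipotent cells, at 0.802 times the control level (0.770 to 0.836), and in basophils, at 0.648 times (0.495 to 0.837). It was 1.28-fold higher in lymphoid-primed cells (1.18 to 1.39), so its higher level in the whole mCherry library was not seen in 2 of 3 lineages. Between mCherry and non_mCherry the stem-group ratio of Kcnq1ot1 was 0.992 (0.916 to 1.08). Snhg12 was within 1.06-fold of control in stem and lymphoid-primed cells (1.03-fold, 0.938 to 1.14, and 1.06-fold, 0.909 to 1.23) and 3.59-fold higher in the 73 mCherry cells of the basophil group (2.23 to 5.76). That group had a median of 36.0 basophil marker UMIs per 10000, beside 160 in control, and only 6 of its cells remained under stricter marker limits, 2 times as high, too few to compare. Under the same limits the Snhg12 ratio of the stem group was 0.816 (0.680 to 0.987), below control. Meg3 in the mCherry stem group was at 0.0424 times its control level (0.0185 to 0.0891), with 10 UMIs in 4648 cells beside 30 UMIs in 553 control cells. It had 0 UMIs in 224 non_mCherry stem cells, where 3 counts would be 1.84 CPM.

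The reporter-negative fraction was set against control in the 8 lineages that both libraries filled. Kcnq1ot1 had ratios of 0.617 to 0.818, with the interval below 1 in 7 of 8. The exception was the T, NK and innate lymphoid group (0.803; 0.477 to 1.36), whose ratio turned to 1.68 (0.830 to 3.69) under stricter marker limits. Neat1 had ratios of 0.538 to 1.21, with the interval below 1 in 4 of 8 and above 1 in erythroid cells. Snhg12 had ratios of 0.951 to 1.80. Its interval lay above 1 in granulocyte (1.17) and monocyte (1.15; 1.01 to 1.31) cells and included 1 in the other 6 groups. Malat1 stayed within 0.863 to 1.09 times its control level, lower in 6 of 8, although it was 1.10-fold higher over the whole library. The non_mCherry library held 2043 cells with B cell progenitor markers beside 39 in control.

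Members were also read by the level of the mast cell gene Cma1, and the other mast cell markers were not used to leave out cells. In mCherry, Cma1 was at 548 CPM, beside 11048 CPM summed over the mast cell markers. Cells with at least 10 Cma1 UMIs per 10000, a mast cell protease, numbered 10 in control, 14 in non_mCherry and 558 in mCherry, and had Malat1 at 23679, 16941 and 25606 CPM and Neat1 at 1214, 445 and 1185 CPM. In cells with stem markers and no Cma1 UMI, Malat1 was at 9192, 10042 and 19485 CPM and Neat1 at 201, 199 and 917 CPM, close to the values of the whole stem group.

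Genes whose products act on or with these RNAs were compared by library, as lists named with earlier results known. Folds are mCherry over control, and medians are of the log2 ratio, beside 0.08 over all genes. Counts past 2-fold stand beside the 18.5% of all genes that were at least 2-fold higher and the 12.3% at least 2-fold lower. None of these lists was tested against the other genes. Of 17 measured paraspeckle proteins, the partners of Neat1, 0 were past 2-fold (median -0.06). Dazap1 (167 and 107 CPM in control and mCherry) and Nudt21 (182 and 123 CPM) were lowest in ratio, and Cpsf6 (74.9 and 108 CPM), which forms a 3′ end processing factor with Nudt21, and Hnrnph3 (44.7 and 63.1 CPM) were highest. Of 24 nuclear speckle proteins, 2 (8.33%) were higher and 2 lower (median -0.23). Clk1, a kinase of splicing factors, was 2.96-fold and Pnisr 2.30-fold higher, and the splicing factors U2af1 and Srsf7 were 2.42-fold and 2.20-fold lower.

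Of 27 genes of nuclear RNA decay and 3′ end processing, 0 were at least 2-fold higher and 5 (18.5%) at least 2-fold lower. The log2 ratio was below 0 for 24 (88.9%), beside 46.3% of all genes, with a median of -0.66. Exosc8, a subunit of the RNA exosome, was 2.81-fold lower (179 and 63.8 CPM) and Rpp40, a subunit of RNase P, the enzyme that cuts the Malat1 3′ end, 3.35-fold lower (26.0 and 7.77 CPM). Zcchc7 and Pabpn1 were 1.81-fold and 1.44-fold higher. Nonsense-mediated decay factors, which degrade spliced snoRNA host transcripts, were mixed: of 15, 0 were higher and 1 (6.67%) lower past 2-fold (median 0.21). Magoh was 2.21-fold and Rbm8a 1.74-fold lower, and Pnrc2 and Smg1 were 1.84-fold and 1.68-fold higher.

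Other noncoding RNAs gave the setting of the members. Of 4 measured snoRNA host genes, 0 passed 2-fold (median 0.06), from Snhg6 (66.0 and 52.8 CPM) and Epb41l4aos (42.8 and 42.4 CPM) to Snhg20 (18.7 and 21.2 CPM) and Snhg12 itself. Of 6 other long noncoding RNAs, 0 passed 2-fold (median 0.46). Xist, the RNA of X inactivation, was 1.93-fold higher (916 and 1768 CPM) and 1700020I14Rik 1.69-fold, while Lockd was 1.44-fold and Gm26917 1.16-fold lower. Malat1 and Neat1 were thus further apart between these libraries than any gene of both lists with at least 20 CPM in either library. Of 20 other long noncoding RNAs in the gene list, only 6 reached that level. Below it, Lncpint was at 2.22 CPM in control and 13.9 CPM in mCherry (318 and 1281 UMIs), a larger quotient than that of Neat1. Pvt1 went the other way, at 6.30 and 2.67 CPM.

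The Kcnq1ot1 imprinted domain held 6 measured genes, Kcnq1ot1 itself among them, of which 2 (33.3%) were at least 2-fold higher and 0 lower (median 0.38). Osbpl5 was 12.6-fold higher (2.39 and 30.2 CPM) and Cd81 2.00-fold, with Tspan32 and Tssc4 1.48-fold and 1.49-fold lower. Other genes of the domain were below the limit of 20 CPM: Cdkn1c was at 1.53 CPM in control and 1.27 CPM in mCherry, and Phlda2 at 6.31 CPM in control, beside 3.41 CPM in non_mCherry and 0.303 CPM in mCherry. In the Meg3 domain no gene reached that level. Dlk1, its paternally expressed coding gene, had 34, 8 and 8 UMIs, and Rtl1 had 0.

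**Figure D5:**
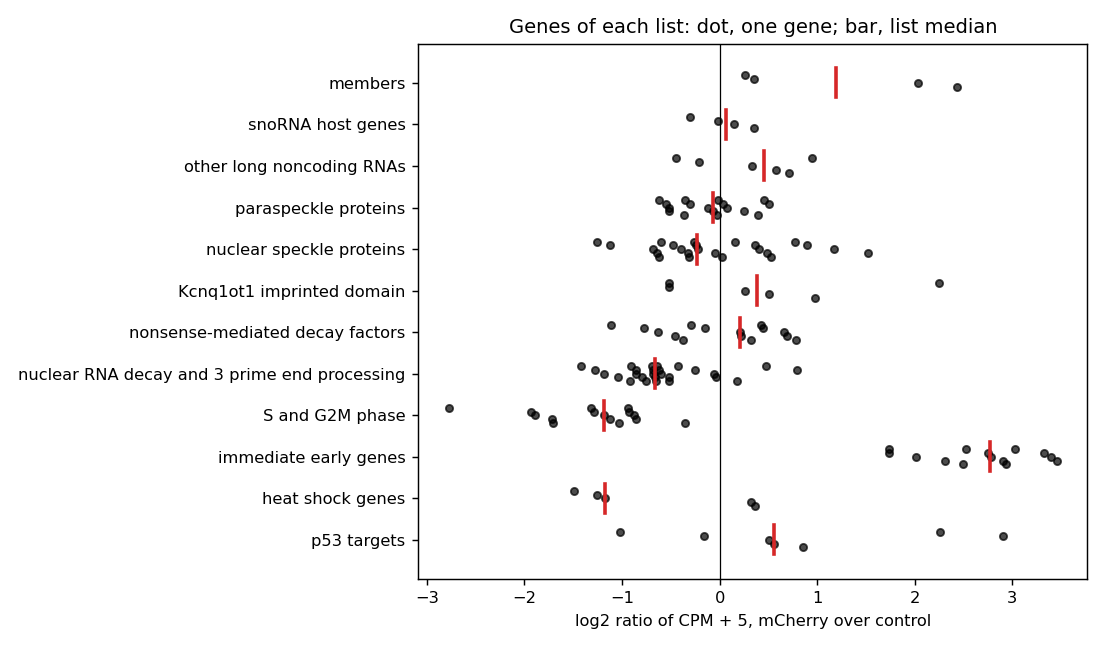
Log2 ratio of CPM + 5, mCherry over control, for each measured gene of the lists (dots) with list medians (red bars). Nuclear decay and 3′ end genes centre at -0.66 and S and G2M phase genes at -1.19, and immediate early genes lie wholly above 0 with a median of 2.77.

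Lists of cell state also differed between mCherry and control. Of 14 immediate early genes 14 were at least 2-fold higher in mCherry than in control (median 2.77), with Zfp36 and Egr1 11.4-fold and 11.5-fold and Ier5 and Atf3 3.56-fold and 3.94-fold higher. Of 15 S and G2M phase genes 12 (80.0%) were at least 2-fold lower (median -1.19), from Rrm2 (9.31-fold) and Mcm5 (4.14-fold) to Top2a (1.84-fold) and Cenpf (1.30-fold). Of 5 heat shock genes 3 were at least 2-fold lower, with Hspe1 2.84-fold and Hsph1 2.63-fold lower and Hspa8 and Dnajb1 1.28-fold and 1.27-fold higher. Of 7 p53 targets 3 (42.9%) were higher and 1 (14.3%) lower past 2-fold. Btg2, which is also counted among the immediate early genes, was 7.76-fold and Trp53inp1 9.33-fold higher. Bax was 2.09-fold and Ccng1 1.15-fold lower. The part of these lists in the Malat1 and Neat1 levels was not tested.

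Genes most like each member were ranked by Pearson's r of log2 of CPM + 5 over the 22 library and lineage groups of at least 50 cells, among 6663 genes. These groups share libraries, and the 3 mCherry groups weigh on r. Malat1 was most like Wbp2 (r = 0.957), Tgfbr2 (0.956) and Ttc28 (0.949), and without the mCherry groups Wbp2 and Tgfbr2 still led (0.954 and 0.942). Neat1 was most like Osm, Slc7a8 and Tbc1d9b (0.905, 0.905 and 0.900), and without the mCherry groups its leading gene was Hk2 (0.857). Kcnq1ot1 was most like Rab38, Serf1 and Srek1 (0.885, 0.862 and 0.855), and Snhg12 most like Clptm1, Elf2 and Matr3 (0.836, 0.827 and 0.825). Without the mCherry groups all 3 genes of Snhg12 changed, to Mrps6, Prpf38b and Gtf3c1 (0.869, 0.852 and 0.840). Among the members themselves r was 0.559 for Malat1 and Neat1 and -0.036 for Malat1 and Kcnq1ot1.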

How the data were processed

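The authors deposited a sparse matrix of whole UMI counts per gene and barcode for each library. Per the submitters' processing notes, Cell Ranger 6.1.2 and mm10 were used, while version 3.1.0 stands in the matrix, per the file headers; which made the counts is not settled, and the strand setting is not given in the sources used here. Barcodes were kept with at least 1000 genes, at least 2000 UMIs and at most 10% mitochondrial UMIs, less the doublets scored over 0.25 by Scrublet in scanpy 1.11.5 (217, 204 and 247), a limit set after the scores were seen because the automatic one called 0 mCherry cells. Counts were summed and divided by library totals (CPM), and folds are quotients of CPM. Intervals are exact Poisson or conditional binomial. Ratios of lists and of all genes used a pseudocount of 5 CPM and genes of at least 20 CPM in 1 of the 2 libraries. Lineage groups required the top class to exceed the second by 2 times. The code was tested on simulated data. The members, gene lists and limits were chosen with earlier results of these data known. Genes named besides the members were the 2 highest and 2 lowest ratios of each list and the 3 most alike per member; Runx1t1, Kit, Cma1, Kcnq1, Cdkn1c, Phlda2, Dlk1 and Rtl1 were added after their values were seen. Sequences come from GENCODE M21 transcripts and RefSeq windows of GRCm38.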

Additional observations from a re-analysis of the deposited data

How the results depend on the processing

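Over 247 alternative values of 103 results, 157 moved by less than the counting interval, 90 moved more and 0 past 2-fold reversed. The Malat1 log2 ratio of mCherry over control, 2.03, was 2.05 with all deposited barcodes, 2.05 with a stricter barcode filter, 2.06 without Malat1 and mitochondrial UMIs in the denominator, 1.82 with cells thinned to 2000 UMIs, 1.84 with median-of-ratios scaling, 1.82 as a mean over cells and 1.38 as a mean over lineages. In the same order, mCherry over non_mCherry, 1.89, was 1.81, 2.07, 1.93, 1.49, 1.70, 1.49 and 1.43. Non_mCherry over control, 0.14, was 0.24 with all barcodes, -0.022 with the stricter filter, 0.32 thinned, 0.13 rescaled, 0.33 over cells and -0.073 over lineages, so it has no fixed direction. Kcnq1ot1, mCherry over control, went from 0.26 to -0.19 over lineages. With no minimum CPM, which lets in genes of a few UMIs, genes at least 2-fold higher and lower numbered 4822 and 4057 for mCherry over control, 2098 and 1836 for non_mCherry over control, and 4640 and 3988 for mCherry over non_mCherry, beside 1215 and 808, 78 and 18, and 1153 and 731. Where no construction of an alternative shows it, the cause was not tested. Leaving out barcodes found in more than 1 library was chosen after seeing the data. With stricter marker limits 47 of 76 lineage levels of the members moved by less than their interval, and the largest move, 1.76-fold, was that of Kcnq1ot1 in control T, NK and innate lymphoid cells. No paired analysis was possible because each group is 1 library.

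The spread between mice is unknown, since each genotype is 1 mouse, and the 2 fractions of the knock-in mouse are not independent of each other. Depth limits Meg3, with 2 non_mCherry and 11 mCherry UMIs, and lineages under 50 cells, which were not compared. Counts are per gene, so isoforms of Neat1 and priming sites were not separated.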
